A study of Mus musculus with 4 samples.

Results

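The genes described here encode the subunits of the receptors for glutamate and GABA, the main excitatory and inhibitory transmitters of the brain. They were chosen by symbol and not by any measured value: the AMPA (Gria), NMDA (Grin), kainate (Grik), delta (Grid) and metabotropic (Grm) glutamate receptor genes, and the GABAA (Gabra, Gabrb, Gabrg, Gabrd, Gabre, Gabrq and Gabrr) and GABAB (Gabbr) receptor genes. The rule found 45 of the 22363 genes listed in the deposited tables, 26 for glutamate and 19 for GABA receptors. Of these 45 genes, 41 were listed in the tables of all 4 arrays, Grin3b in 3, Gabrr1 in 2, and Gabrr3 and Grm6 in 1 each.

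The study placed brain sections of 8 male mice, aged 3 to 4 months, on 4 Visium arrays, which capture polyadenylated RNA on a grid of discs and count molecules by unique molecular identifiers (UMIs). Every mouse, controls included, carried the DAT (iCre/iCre) genotype, in which Cre is made in dopamine (DA) neurons from both copies of the dopamine transporter gene. The 3 GqCNO mice had a Cre-dependent AAV-hM3Dq(Gq)-mCherry virus injected into the midbrain of both hemispheres and drank the hM3Dq ligand CNO at 300 mg/L with 2% sucrose for 1 week. The 3 GqVeh mice had the virus and drank 2% sucrose, and the 2 CNO alone mice had no virus and drank CNO with sucrose. All were single housed with a running wheel.

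The authors averaged the discs of 1 mouse in each region. The midbrain arrays gave the substantia nigra (SN, labelled SNc), the ventral tegmental area (VTA) and the thalamus, and the striatal arrays gave the caudoputamen (CP), the lateral septal complex (LSX) and white matter. Regions were outlined on the screen with marker genes, among them Th, Slc6a3 and Slc18a2 for SN and VTA, Prkcd for thalamus and LSX, Ppp1r1b for CP and Mbp for white matter. The authors dropped discs with much Gfap, Aldh1l1, Aif1 or P2ry12, genes of astrocytes and microglia. A disc covers several cells, so a level below is that of a mixed patch of tissue, and fewer cells of a type cannot be told apart from less RNA per cell.

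Fast excitation runs through AMPA and kainate receptor channels, while NMDA receptors pass calcium and need both glutamate and depolarization to open. GABAA receptors are chloride channels of 5 subunits, in which an alpha, a beta and usually a gamma or delta subunit join, and the delta subunit marks receptors outside the synapse that carry tonic inhibition. The metabotropic glutamate receptors and the GABAB receptor signal through G proteins. On DA neurons these receptors receive the excitatory and inhibitory inputs that shape firing, and in the striatum they receive the cortical and local input to the projection neurons.

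Depth set what could be seen. The total per mouse was 7779 to 71906 UMIs in SN, 25808 to 350222 in VTA, 80837 to 444790 in thalamus, 4300381 to 7977003 in CP, 80525 to 1354667 in LSX and 119422 to 405313 in white matter. SN rested on 1 to 7 discs a mouse and CP on 357 to 560. GqCNO 801 and GqCNO 781 each had 1 SN disc, with 7779 and 14717 UMIs. A count of 0 there allows a level of up to 3.86 UMIs per 10000 in GqCNO 801 and 2.04 in GqCNO 781 (counting error only). GqCNO 801 had no thalamus column. All 9 DA markers tested were higher in VTA than in thalamus, with a median log2 difference of 3.20, all 5 thalamus markers were lower, and all 10 markers of striatal projection neurons were higher in CP than in LSX, with a median of 4.41. Discs were picked by some of these same genes, so the lists describe that choice and are no independent check of the labels.

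Levels are UMIs per 10000 UMIs of the region in that mouse. In the 5 control mice (GqVeh and CNO alone), 40 of the 45 genes had at least 1 UMI in every mouse in CP, 37 in LSX, 33 in thalamus, 26 in white matter, 19 in VTA and 7 in SN. At the other end, 10 genes were at 0 in all 5 SN controls (Gabrb2, Gabrd, Gabre, Gabrq, Gabrr1, Gabrr2, Gabrr3, Grid1, Grin3b and Grm6). Gabrr1, Gabrr3 and Grm6 were not listed in the midbrain tables and were set to 0 there. SN was also the shallowest region. Grm6 and Gabrr3 had no UMI in any mouse of the striatal arrays. Because the arrays were normalized separately, midbrain and striatal levels are shown side by side and were not tested against each other.

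**Figure D1:**
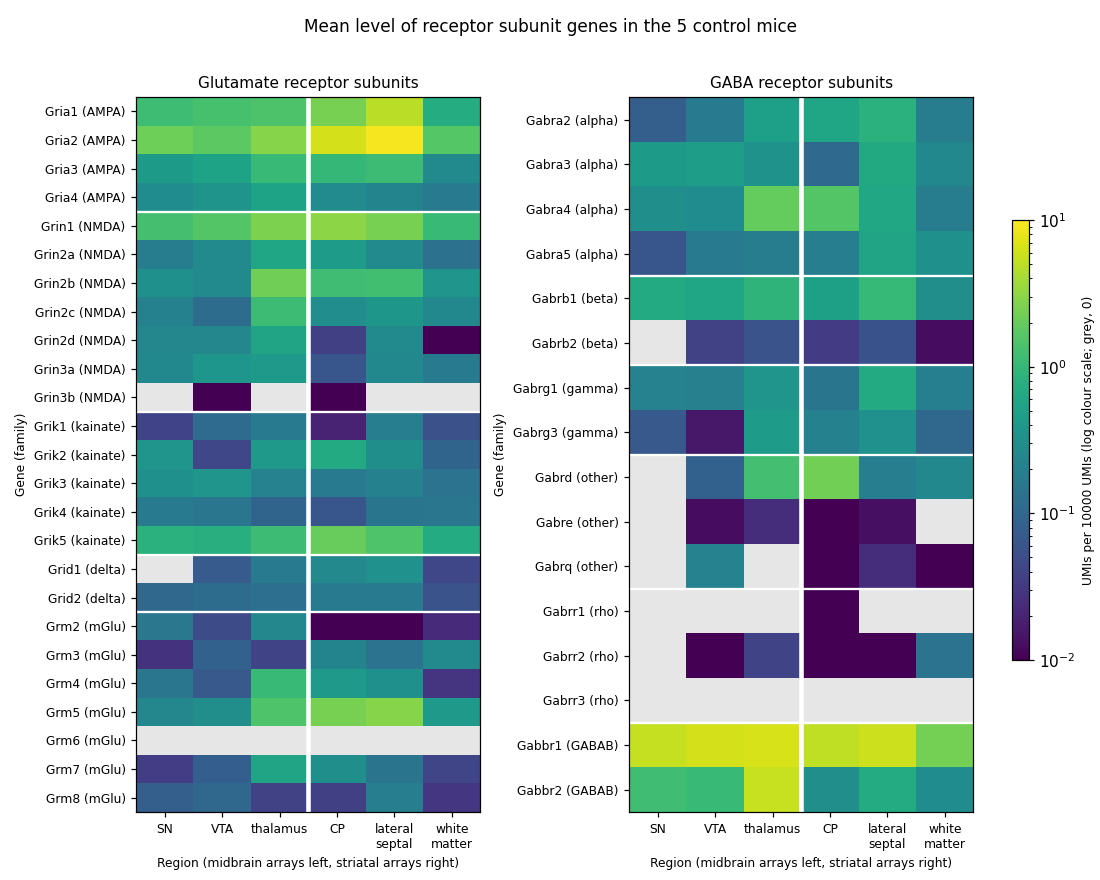
Mean level of 41 receptor subunit genes (rows, glutamate receptors left and GABA receptors right) in each region (columns) over the 5 control mice, as UMIs per 10000 UMIs on a log colour scale, with grey for 0 and 1 darkest colour for all levels of 0.01 or less. Gabbr2 and Grin2b are bright in thalamus, Gabrd in CP and thalamus, and the rho subunit genes are dark or grey throughout. Colours compare regions within a row, since levels of different genes also depend on capture.

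The thalamus and the dopaminergic midbrain differed in a common direction. In the control mice, 15 of the 27 members tested were lower in VTA than in thalamus and 0 were higher (limma on the difference within each mouse, adjusted over all genes), while 26.8% of all 6502 genes tested were called, 13.9% lower and 12.9% higher. The median log2 difference was -0.53 over the members and 0.00 over all genes. In SN, 13 of 29 members were lower than in thalamus and 0 higher, against a background of 15.5% called (10% lower and 5.45% higher), with a median of -0.62 against -0.05. A gene entered these comparisons on its mean over both regions, so a gene high in thalamus alone could pass.

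Among the metabotropic glutamate receptor genes, Grm5, whose product couples to Gq, was lower in both midbrain regions. Its level in thalamus was 1.34 in GqVeh 802, 1.62 in GqVeh 784, 0.745 in GqVeh 785, 2.60 in CNO alone C2W2 and 1.2 in CNO alone C1W7. In VTA the same mice had 0.468, 0.0491, 0.387, 0.377 and 0.228. Every VTA value lay below every thalamus value, and the log2 difference was -1.28 (SE 0.21, limma adjusted p = 1.57e-04) in VTA and -1.58 (SE 0.30, adjusted p = 8.48e-06) in SN. Grm4, a presynaptic receptor gene, had a mean of 1.08 ± 0.54 (SD, n = 5) in thalamus and 0.0693 ± 0.0517 in VTA, where GqVeh 785 had no UMI, and differed by -1.42 on the log2 scale (SE 0.20, adjusted p = 1.93e-05).

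Gabbr2 encodes the GABAB subunit that couples to the G protein. Thalamus held 6.02, 5.52, 4.65, 5.69 and 6.05 UMIs per 10000 in GqVeh 802, 784 and 785 and CNO alone C2W2 and C1W7, and VTA held 0.468, 0.638, 2.32, 0.926 and 0.914 in the same order. Every VTA value lay below every thalamus value, and the log2 difference was -2.07 (SE 0.21, limma adjusted p = 3.09e-07) in VTA and -1.85 (SE 0.25, adjusted p = 2.22e-11) in SN. Gabbr1, the subunit that binds GABA, was not among the genes called lower in either region. Its control mean was 6.32 ± 0.79 in VTA and 5.50 ± 1.68 in SN.

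Among the NMDA receptor genes, Grin2b, which encodes a glutamate-binding subunit, was lower in both midbrain regions. It measured 3.18, 2.02, 1.64, 2.85 and 1.55 in the thalamus of the controls in the order above, against 0.117, 0.147, 0.387, 0.343 and 0.371 in VTA, with no overlap. The log2 difference was -1.81 (SE 0.21, adjusted p = 1.41e-06) in VTA and -1.78 (SE 0.29, adjusted p = 5.14e-08) in SN. Grin2c and the obligatory subunit gene Grin1 were also lower in both.

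Gabra4 and Gabrd encode an alpha and the delta subunit that join in extrasynaptic GABAA receptors. In thalamus Gabra4 was at 2.14, 1.89, 2.61, 0.866 and 2.35 and Gabrd at 1.64, 1.41, 1.82, 0.495 and 1.0 in the control mice, again in the same order. The low value of both was that of CNO alone C2W2, whose thalamus column was the shallowest at 80837 UMIs. Gabrd had no UMI in any of the 5 SN controls, so its thalamus mean of 1.28 was at least 9.69-fold higher than the level that 3 UMIs over those 5 columns would give. In VTA the log2 differences from thalamus were -1.61 (SE 0.20, adjusted p = 5.04e-06) for Gabra4 and -1.58 (SE 0.20, adjusted p = 8.10e-06) for Gabrd.

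Across the families, the genes lower in VTA included the AMPA receptor genes Gria2 and Gria3, the NMDA receptor genes Grin1, Grin2b and Grin2c, the metabotropic receptor genes Grm4, Grm5 and Grm7, the GABAA genes Gabra2, Gabra4 and Gabrd, and Gabbr2. No kainate receptor gene was called. Gabrq, which encodes the theta subunit, was below the filter and not tested: it had no UMI in any thalamus control and a VTA mean of 0.212, at least 7.39-fold above the 3-UMI level of thalamus, yet 0.775 of GqVeh 785 made up most of that mean and GqVeh 802 had 0. Genes that anchor or traffic these receptors moved as well. Of 28 glutamate receptor partner genes tested, 16 were lower in VTA than in thalamus and 5 higher, with Camk2a, a kinase of the postsynaptic density, at -2.82 and the scaffold genes Dlgap4 at -1.68 and Dlgap3 at -1.77. Of 16 GABA receptor partner genes, 3 were lower and 4 higher.

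Cell types differed beside these genes. Both glutamatergic markers tested were lower in VTA, 3 of 4 GABAergic markers were higher, and the 10 pan-neuronal markers had a median of -0.18 in VTA and -0.56 in SN. Their part in the subunit differences was not tested. At matched depth (every column thinned to the lowest UMI total) the count of members called fell from 15 to 6 in VTA and from 13 to 0 in SN, and with only genes of a mean of at least 1 it was 7 and 5.

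Between SN and VTA none of the 19 members tested was called in the controls (limma, 0 also at an unadjusted p under 0.05), where 0.0809% of all genes were, and the median was -0.17 against -0.06 over all genes. Below the filter and so not tested was the kainate receptor gene Grik2, whose level was higher in SN than in VTA in 5 of 5 control mice without overlap. It had 0.404, 0.859, 0.175, 0.264 and 0.139 in SN and 0, 0.0981, 0, 0.0343 and 0.0857 in VTA in GqVeh 802, 784 and 785 and CNO alone C2W2 and C1W7, on 1 or 2 UMIs a mouse in SN. In these shallow SN columns 1 UMI already stood above every VTA value. Grik2 was picked after its values were seen, and the share of all genes without overlap between SN and VTA was not computed.

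**Figure D2:**
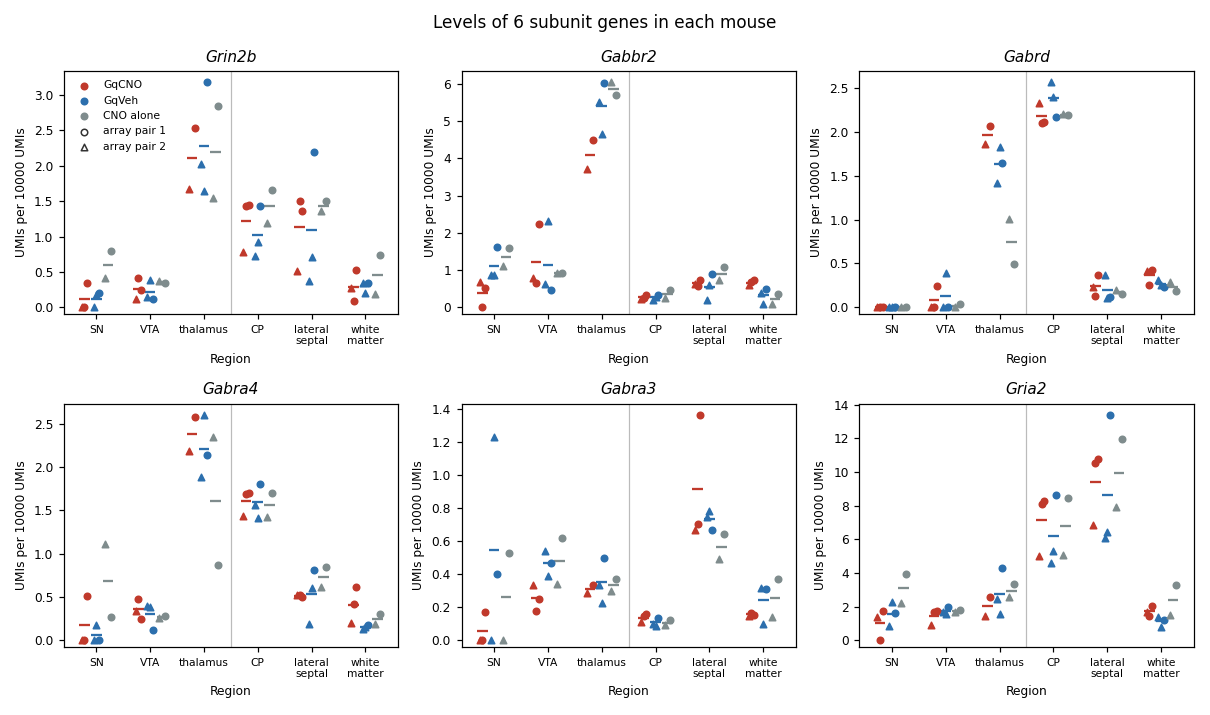
Level of 6 subunit genes (panels) in every mouse by region, as UMIs per 10000 UMIs. Colour gives the group, circles array pair 1 and triangles array pair 2, and the midbrain regions stand left of the line. Grin2b and Gabbr2 sit higher in thalamus than in SN and VTA in all groups, Gabrd is high in CP and low in LSX, and Gria2 splits by array pair in CP.

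CP, the dorsal striatum of GABAergic projection neurons, and LSX, a neighbouring set of GABAergic nuclei, had different subunit profiles. In the controls 8 members were higher in CP and 15 lower, of 36 tested, where 12.8% of all genes were called higher and 18.7% lower (31.4% in either direction). The median log2 difference was -0.25 over the members and -0.06 over all genes. Higher in CP were Gabrd, Gabra4, Grik2, Grm7, Grin2a, Grm3, Grik5 and Grin1. Among those lower were Gria1 and Gria2, Grin2d and Grin3a, Grik1 and Grik4, Grm5 and Grm8, the GABAA genes Gabra3, Gabra5, Gabrb1, Gabrg1 and Gabrg3, and Gabbr2.

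Gabrd had the widest difference. Its CP level was 2.17 in GqVeh 802, 2.56 in GqVeh 784, 2.40 in GqVeh 785, 2.18 in CNO alone C2W2 and 2.20 in CNO alone C1W7, and its LSX level was 0.116, 0.372, 0.110, 0.155 and 0.197. No LSX value came near the CP range. The means of 2.30 ± 0.17 and 0.190 ± 0.108 (SD, n = 5) differed 12.1-fold, with a log2 difference of 3.39 (SE 0.17, limma adjusted p = 1.30e-07). Gabra4, its usual alpha partner in the forebrain, was higher in CP by 1.43 (SE 0.22, adjusted p = 5.98e-04), with means of 1.58 ± 0.17 and 0.614 ± 0.263. The kainate receptor gene Grik2 followed at 1.05 (SE 0.20, adjusted p = 0.00211) and Grm7, a presynaptic metabotropic receptor gene, at 1.03 (SE 0.27, adjusted p = 0.0147).

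In the opposite direction stood Gabra3, another alpha subunit gene. It measured 0.136, 0.0990, 0.0886, 0.120 and 0.0924 in CP and 0.666, 0.744, 0.786, 0.642 and 0.493 in LSX, in the same order of mice, so that all 5 LSX values were above all CP values. The log2 difference was -2.18 (SE 0.17, adjusted p = 2.94e-06). Gabrg1, which encodes a gamma subunit, was lower by 1.87 (SE 0.20, adjusted p = 3.13e-05), a log2 decrease also without overlap, and the NMDA receptor gene Grin2d fell by 1.86 (SE 0.20, adjusted p = 3.49e-05). Grik1 had a log2 difference of -1.69 (SE 0.26, adjusted p = 4.52e-04). The AMPA receptor genes Gria1 and Gria2 were lower in CP by smaller steps, -1.01 and -0.49.

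Several of these genes are neighbours. On mouse chromosome 5 (GRCm38.p6, the assembly that mm10 names) lie Gabrg1 at 70751047 to 70842617, Gabra2 at 70958392 to 71095849, Gabra4 at 71569734 to 71658308 and Gabrb1 at 71657921 to 72149572. Their log2 differences between CP and LSX were -1.87, -0.42 (not called), 1.43 and -0.94, so genes of 1 cluster went both ways. The annotated spans of Gabra4 and Gabrb1 overlap at their ends, and how reads there were divided was not examined. Gabrd lies apart from the other GABAA genes, at chr4:155384979-155398098.

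Promoter sequence is shown for members called in this comparison, to set the letters before the start beside a gene's direction. RefSeq promoters on GRCm38.p6 were found for 30 of the 45 genes. Of the 23 genes called, 16 had one, and for 6 of these the 250 bases before the start overlapped no other annotated gene. The pair with the largest difference in each direction among those 6 is printed, 5′ to 3′ on the minus strand, with motif matches in capitals: Grm3 (chr5:9725353-9725602, log2 difference 0.55), Grin1 (chr2:25319188-25319437, 0.32), Gabra3 (chrX:72656920-72657169, -2.18) and Gabrg1 (chr5:70842618-70842867, -1.87).
Grm3: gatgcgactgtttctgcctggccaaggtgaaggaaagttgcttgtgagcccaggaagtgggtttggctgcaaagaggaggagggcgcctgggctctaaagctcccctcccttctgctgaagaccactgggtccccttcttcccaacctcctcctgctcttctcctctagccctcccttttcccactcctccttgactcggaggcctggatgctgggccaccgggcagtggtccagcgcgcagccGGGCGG
Grin1: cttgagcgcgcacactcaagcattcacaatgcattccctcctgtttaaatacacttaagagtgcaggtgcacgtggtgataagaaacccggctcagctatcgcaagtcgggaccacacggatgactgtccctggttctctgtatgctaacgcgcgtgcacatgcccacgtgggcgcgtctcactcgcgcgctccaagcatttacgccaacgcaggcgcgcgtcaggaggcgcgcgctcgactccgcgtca
Gabra3: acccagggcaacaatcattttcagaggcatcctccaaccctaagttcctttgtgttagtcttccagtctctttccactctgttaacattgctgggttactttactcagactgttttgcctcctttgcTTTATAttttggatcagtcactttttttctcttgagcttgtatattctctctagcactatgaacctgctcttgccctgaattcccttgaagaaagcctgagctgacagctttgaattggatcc
Gabrg1: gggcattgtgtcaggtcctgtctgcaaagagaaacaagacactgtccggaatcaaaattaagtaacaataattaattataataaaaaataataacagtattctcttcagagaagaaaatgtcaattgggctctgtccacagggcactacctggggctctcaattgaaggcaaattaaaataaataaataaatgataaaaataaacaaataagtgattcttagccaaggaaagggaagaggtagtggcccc

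The 2 promoters of genes higher in CP were richer in G and C, at 62.4% (Grm3) and 58.8% (Grin1), than those of Gabra3 at 42.4% and Gabrg1 at 35.6%, a description of 4 sequences only. Both strands were searched for the letters GGGCGG, called the GC box below, the letters TATAAA, called the TATA box, the cAMP response element TGACGTCA and the EGR site GCGTGGGCG. None contains another, though the first and the last can share letters where they meet. Grm3 held a GC box starting 6 bases before the start and Gabra3 a TATA box starting 123 bases before it, read on the other strand. Grin1 and Gabrg1 held none of the 4. Among 32851 RefSeq promoters 32.7% held the GC box, 12.4% the TATA box, 1.55% the response element and 0.536% the EGR site, and among 37 promoters of members 18 held the GC box, 4 the TATA box and 0 the other motifs.

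The marker lists moved widely between CP and LSX, beside these genes: all 10 oligodendrocyte markers (median log2 difference 1.67) and all 12 microglia markers (0.80) were higher in CP, all 4 GABAergic markers were lower, and the pan-neuronal median was -0.08. Their part was not tested. Partner genes split both ways, with 18 higher and 19 lower of 56 tested. The transmembrane AMPA receptor regulatory gene Cacng5 was at -3.02, the scaffold gene Dlgap1 at -1.71 and Hap1, which aids GABAA receptor recycling, at -2.25. At matched depth 9 members were called in place of 23.

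**Figure D3:**
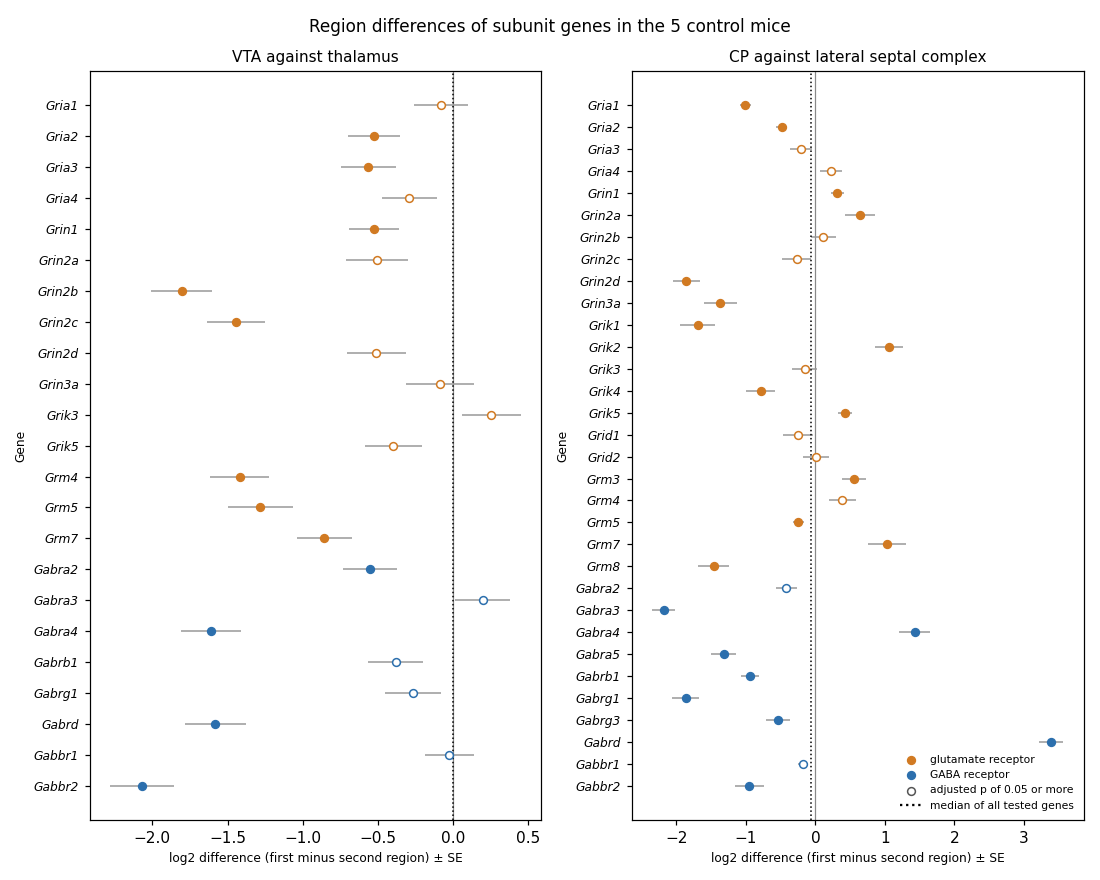
Log2 difference ± SE of the members tested, apart from those not described one by one, in the 5 control mice, VTA minus thalamus (left) and CP minus LSX (right), with orange for glutamate and blue for GABA receptor genes and open circles for an adjusted p of 0.05 or more. In the left panel all filled points lie below 0, and in the right panel they lie on both sides, with Gabrd far to the right at 3.39.

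White matter, tracts of axons and oligodendrocytes next to the striatum, served as the region poor in synapses. Against it 23 members were higher in CP and 3 lower of 34 tested (40.5% of all genes called, 26.1% higher and 14.5% lower), with a median log2 difference of 1.33 against 0.21 over all genes, and 27 were higher and 1 lower in LSX of 37 tested (35.5% called, 24.7% higher and 10.7% lower), with a median of 1.36 against 0.28. In CP the widest were Gabrd at 2.97 (SE 0.16, adjusted p = 4.03e-11), Gabra4 at 2.81 (SE 0.19, adjusted p = 8.13e-10), Grm4 at 2.69 (SE 0.31, adjusted p = 1.34e-06) and Grik2 at 2.42 (SE 0.25, adjusted p = 2.54e-07). Grm4, a presynaptic metabotropic receptor gene, was at 0.410 ± 0.050 in CP and at 0 in 3 of the 5 white matter controls. In LSX the widest were Gria1 at 2.75 (SE 0.18, adjusted p = 2.50e-10), Grm5 at 2.66 (SE 0.20, adjusted p = 3.42e-09), Gria2 at 2.52 (SE 0.18, adjusted p = 2.13e-09) and Grin2d at 2.52 (SE 0.37, adjusted p = 2.30e-05), which had a UMI in 1 of the 5 white matter controls.

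The exceptions were few. Gabrr2, a rho subunit gene best known from the retina, was higher in white matter than in CP (CP minus white matter -1.55, SE 0.34, adjusted p = 0.00137) and than in LSX (-1.54, SE 0.39, adjusted p = 0.00408). It rested on little RNA, 23 UMIs in white matter over all 8 mice, with 0.0568, 0.0317, 0.150, 0.123 and 0.332 in the 5 controls. Every control was higher in white matter than in CP, where the highest value was 0.0110. Grin3a (-0.95, SE 0.29, adjusted p = 0.0143) and Gabra3 (-0.82, SE 0.28, adjusted p = 0.0248) were the other members lower in CP. Oligodendrocyte markers were lower in CP than in white matter in 10 of 10 cases (median -3.31) and pan-neuronal markers higher in 8 of 10 (0.81), the contrast by which white matter was outlined. Partner genes were higher in 35 and lower in 7 of 54 cases in CP.

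GqCNO mice were then compared with the 5 controls, to ask whether a week of chronic activation of DA neurons moved receptor subunit RNA. No member was called in any of the 6 regions, against all controls, GqVeh or CNO alone, by limma, and 0 were called against all controls by edgeR on the recovered UMIs. The comparisons with GqVeh and CNO alone share the GqCNO mice and are parts of the comparison with all controls. The background was low too: 0.648% of all genes in SN, 1.52% in VTA, 0% in thalamus, CP and LSX and 0.0367% in white matter were called against all controls, and 0.875%, 2.25%, 0%, 0.00925%, 0% and 0.0459% by edgeR in SN, VTA, thalamus, CP, LSX and white matter. Against GqVeh alone 0.194% were called in SN, 0.475% in VTA, 0.0462% in CP and 0.0367% in white matter, against CNO alone 0.615% in SN and 1.12% in VTA, and between GqVeh and CNO alone, where again 0 members were called, 0.0648% in SN and 0.0792% in VTA, with 0% in every other region. At an unadjusted p under 0.05 against all controls, 1 of 18 members was lower in SN, 2 of 20 in VTA, 1 of 28 in thalamus with 1 higher, 1 of 33 in CP, 1 of 37 in LSX with 1 higher, and 3 of 34 were higher in white matter.

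In SN 13 of the 18 members tested lay below 0, with a median log2 difference of -0.60 against -0.08 over all genes, of which 55.1% lay below 0. Without GqCNO 801, which like GqCNO 781 had 1 SN disc, the members' median was -0.27. Gabbr1 had the smallest p. Its SN level was 0 in GqCNO 801, 3.60 in GqCNO 804 and 6.79 in GqCNO 781, against 4.64, 3.44, 7.55, 6.87 and 5.01 in GqVeh 802, 784 and 785 and CNO alone C2W2 and C1W7. GqCNO 804 and 781 lay within the control range and GqCNO 801 below it. The log2 difference was -1.24 (SE 0.43, limma adjusted p = 0.283), which was -2.10 on array pair 1 and 0.38 on array pair 2, and -0.09 without GqCNO 801. Leaving out GqCNO 781 instead gave -2.02 with an adjusted p of 0.00189.

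Gabbr2 was the only SN member whose groups did not overlap, where 6.11% of all genes did not, 3.76% with GqCNO lower. GqCNO 801, 804 and 781 had 0, 0.514 and 0.679, and the controls, in the same order, 1.61, 0.859, 0.877, 1.59 and 1.11. The values of GqCNO 781 and GqVeh 784 each rested on 1 UMI, of 14717 and 11644, so only the column totals set these mice apart. The 0 of GqCNO 801 allows a level of up to 3.86, above every control value. The log2 difference was -0.99 (SE 0.55, adjusted p = 0.673). Gria2, the AMPA subunit gene that limits calcium entry, was at -0.97 (SE 0.51, adjusted p = 0.646), with 0, 1.71 and 1.36 against 1.61, 0.859, 2.28, 3.96 and 2.23.

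In VTA the members' median was -0.24 against -0.06 over all genes, and the receptor classes stood on either side of 0: the 12 glutamate receptor genes tested had a median of -0.31 with 1 above 0, and the 8 GABA receptor genes tested 0.11 with 5 above 0. This split was not tested. Gria1, an AMPA subunit gene, was at 1.38, 0.497 and 0.449 in GqCNO 801, 804 and 781 and at 1.29, 0.883, 1.16, 1.78 and 1.57 in the controls (log2 difference -0.58, SE 0.27, adjusted p = 0.448). The groups overlapped by GqCNO 801 alone, which lay within the control range and had the deepest VTA column of the GqCNO mice, at 166825 UMIs. The columns of GqCNO 804 and 781 held 40212 and 89008 UMIs, so their low Gria1 values rest on few UMIs.

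Grin1 separated the groups in VTA. The GqCNO mice had 1.14, 0.995 and 1.12 and the controls 1.64, 1.52, 1.55, 1.72 and 1.54. The shallowest VTA columns were those of GqCNO 804 and GqVeh 785, where 3 UMIs make 0.746 and 1.16. Their values rest on few UMIs, so the small spread within each group says little about precision. The log2 difference was -0.40 (SE 0.23, limma adjusted p = 0.560), with -0.48 on array pair 1 and -0.33 on array pair 2. Gabra3 and Gria4 also did not overlap, both lower, which makes 3 of the 20 members tested where 8.22% of all genes did not overlap, 4.86% with GqCNO lower. Grik2, below the filter and not tested, lay the other way without overlap, at 0.360, 0.249 and 0.225 in GqCNO 801, 804 and 781 (6, 1 and 2 UMIs) and at 0, 0.0981, 0, 0.0343 and 0.0857 in the controls. Its log2 difference was 0.52, with 0.63 on array pair 1 and 0.37 on array pair 2. Grik2 was picked after its values were seen, and the share of genes without overlap given above covers only genes past the filter. Its low VTA control values are also those that stood against SN above, so both statements rest on the same few UMIs.

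Other cell types moved in the same samples. DA markers had a median log2 difference of -1.24 in SN (4 of 10 lower) and -1.28 in VTA (6 of 9 lower), pan-neuronal markers -0.65 (1 of 10 lower) and -0.58 (2 of 10 lower), and microglia markers 1.22 (2 of 11 higher) and 1.44 (7 of 11 higher). The summed level of the 12 microglia markers was 34.5 to 92.9 in the VTA of GqCNO mice and 4.23 to 26.2 in that of the controls, and the summed pan-neuronal level 27.4 to 36.4 against 45.0 to 60.1. Their part in the subunit values was not tested. Of the receptor partner genes 0 of 34 were called in SN and 0 of 36 in VTA, with medians of -0.11 and -0.18. The difference between the SN and VTA responses was called for 0 of 15 members and 0 of 5341 genes, at an unadjusted p under 0.05 for 1 member in each direction.

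**Figure D4:**
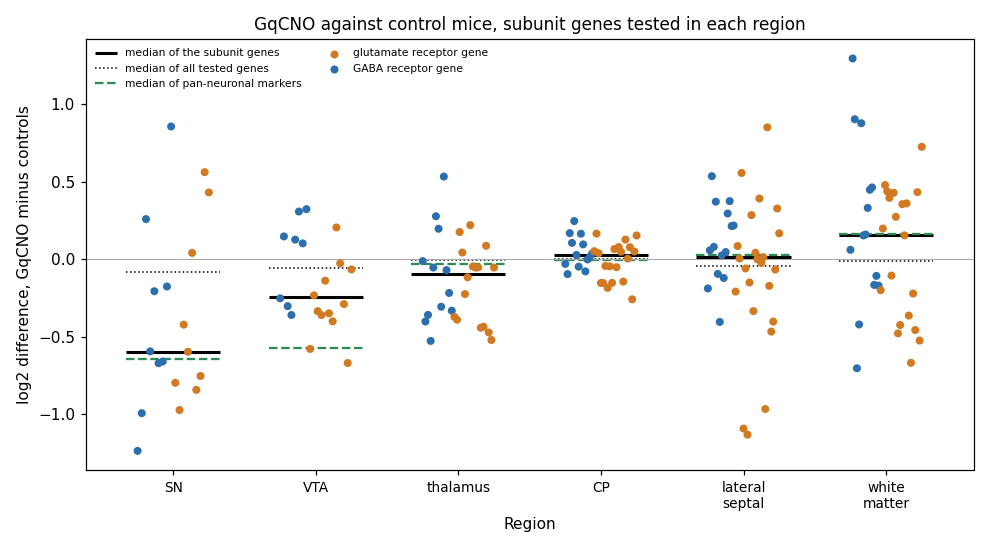
Log2 difference of each member tested, GqCNO minus the 5 control mice, by region, with the members' median and the median of all genes tested. The points spread widely in SN and narrowly in CP, the members' medians lie below 0 in SN (-0.60) and VTA (-0.24), and no member had an adjusted p under 0.05.

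The striatum had the depth that SN lacked. In CP the members' median was 0.03 against -0.00 over all genes, and 0 of 33 separated the groups, as 3.07% of all genes did. In LSX 0 of 37 did, beside 3.49% of all genes. Grm4 was at 0.355, 0.349 and 0.295 in GqCNO 801, 804 and 781 and at 0.429, 0.381, 0.434, 0.465 and 0.339 in the controls, a log2 difference of -0.26 (SE 0.12, adjusted p = 0.999) that was -0.31 on array pair 1 and -0.33 on pair 2. Gabra3 (0.25, SE 0.13) and Grik2 (-0.19, SE 0.12) had the next smallest p, both with an adjusted p of 0.999. In thalamus, where 2 GqCNO mice were measured, Gabbr2 was at 4.50 and 3.71 against 4.65 to 6.05 in the controls and Gabrd at 2.07 and 1.86 against 0.495 to 1.82, without overlap (log2 differences -0.40 and 0.53, adjusted p = 0.998 for both). Gabra2 also did not overlap there, lower, which makes 3 of 28 members where 7.64% of all genes did not. In white matter Gabbr2 was at 0.670, 0.738 and 0.592 against 0.0950 to 0.482 (1.30, SE 0.43, adjusted p = 0.998), the 1 member of 34 without overlap where 2.37% of all genes did not, 1.03% with GqCNO higher.

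A larger difference in CP lay between the arrays. GqCNO 801 and 804, GqVeh 802 and CNO alone C2W2 lay on the first striatal and midbrain array (array pair 1), and GqCNO 781, GqVeh 784 and 785 and CNO alone C1W7 on the second (array pair 2), a comparison made after the values were seen, with group as a covariate. The deposited column headers mark every mouse of array pair 1 as C2 and every mouse of array pair 2 as C1, so the array and whatever that mark stands for cannot be told apart. In CP 20 of 33 members were higher on array pair 1 and 0 lower, where 19.9% of all genes were higher and 9.07% lower (29% in either direction), with a median log2 difference of 0.31 over the members and 0.06 over all genes. Gria2 measured 8.07, 8.29, 8.63 and 8.44 on array pair 1 and 4.99, 4.58, 5.33 and 5.10 on array pair 2, in the order of the mice just given. The means of 8.36 ± 0.24 and 5.0 ± 0.31 (SD, n = 4 each) stood far apart, with a log2 difference of 0.74 (SE 0.07, limma adjusted p = 5.26e-07).

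Grm5 (0.76), Gabra2 (0.81), Gabrb1 (0.76), Grin2b (0.71) and Gria1 (0.48) were among the others called, and Gabrd (-0.12) and Grin1 (0.09) were among those that were not. Pan-neuronal markers had a median of 0.20 (5 of 10 higher) and microglia markers -0.22 (6 of 12 lower) between the pairs. Each pair held all 3 groups, and the cause was not tested. In the other 5 regions 0 members were called between pairs by limma, and before adjustment (p under 0.05) 5 members were higher and 0 lower in thalamus, 8 and 0 in LSX, 4 and 1 in white matter, 0 and 1 in SN and 0 and 0 in VTA, where 0.547%, 0%, 0.11%, 0.0162% and 0% of all genes were called. The members' medians there were 0.22 in thalamus (0.07 over all genes), 0.33 in LSX (0.00), 0.32 in white matter (0.07), 0.14 in SN (0.04) and 0.04 in VTA (0.03), so a shift of the size in CP was also seen in LSX and white matter. Gria2 in LSX was at 10.6, 10.8, 13.4 and 11.97 on array pair 1 and at 6.87, 6.05, 6.43 and 7.94 on array pair 2, without overlap (log2 difference 0.79, SE 0.12, limma adjusted p = 0.111).

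The balance between related subunits was read from 6 log2 ratios within a mouse, over all mice with both regions. A ratio compares regions and not the absolute levels of its genes. The exact sign-flip permutation test (two-sided) cannot go below 0.0156 with 7 mice or 0.00781 with 8, and of 36 tests 9 reached that limit, with 0 past the threshold after Benjamini-Hochberg adjustment (adjusted p = 0.0625 for each of the 9).

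The Gria1 to Gria2 ratio, which bears on calcium entry through AMPA receptors, was lower in CP than in LSX in 8 of 8 mice, by a mean log2 difference of -0.46 ± 0.18 (SD). The Grin2a to Grin2b ratio shifts in many circuits as synapses mature. It was higher in VTA than in thalamus in 7 of 7 mice (1.42 ± 0.39) and in SN in 7 of 7 (1.02 ± 0.25). Grin2b levels in both midbrain regions were near or under the added constant of 0.5. The constant draws the ratio of low genes towards 0, above the thalamus ratios, which were all negative. In SN the ratio was 0 in GqCNO 781, GqVeh 784 and CNO alone C1W7, and in VTA it was 0 in GqVeh 802 and 785. The 7 of 7 in SN is therefore partly set by the constant and is no evidence of a changed balance. In VTA the mean difference was 2.02 with a constant of 0.1 and 1.07 with a constant of 1, so its size depends on the constant too.

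Between GqCNO and controls 18 ratio tests gave 0 past the threshold by the exact permutation test, and 0 also at an unadjusted p under 0.05.

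**Figure D5:**
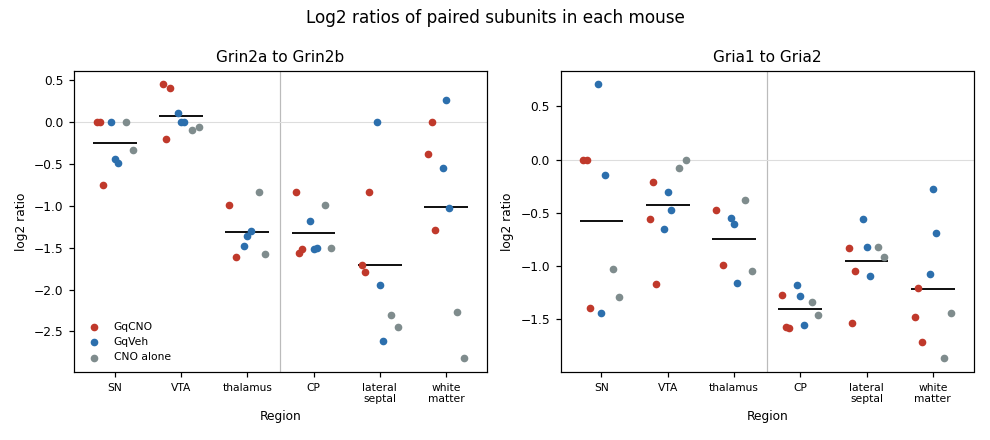
The Gria1 to Gria2 and Grin2a to Grin2b log2 ratios (panels) in every mouse by region, with colour for the group and a line for the mean of all mice. Gria1 to Gria2 is lower in CP than in LSX in all 8 mice and Grin2a to Grin2b higher in SN and VTA than in thalamus in all 7 mice measured, while the groups mix within each region.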

How the data were processed

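Levels of receptor subunit RNA were measured by Visium (v1) in 6 brain regions of 8 mice on 4 arrays. The authors aligned reads to mm10 with Space Ranger (submitters' processing notes; version not given in the sources used here), chose discs in Loupe and deposited, per gene, region and mouse, a median-normalized average signal. This deposited signal is a multiple of 1 UMI: 100% of low values (under 200 steps) came out whole within 0.05, so UMIs were recovered. The 47 deposited columns used were rescaled to 10000. A gene not listed in an array's table was set to 0. Mice were grouped by the labels. The 4 arrays were normalized separately, so regions were tested only within midbrain or striatal arrays.

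Levels were tested as log2(UMIs per 10000 + 0.5) in midbrain and + 0.05 in striatum, so fold changes of low genes are understated, with limma 3.58.1 (trend) in R 4.3.3, for genes with a mean of at least 0.25 or 0.05, adjusted over all genes of a region by Benjamini-Hochberg at 0.05. Region comparisons used the difference within each control mouse. edgeR 4.0.16 on the recovered counts was an alternative. Ratios were tested by exact permutation (SciPy 1.17.1). Named with full statistics were members called between treatment groups (there were 0), the 4 called members with the largest difference in each direction between regions, the 3 with the smallest p in SN, VTA and CP, and the members of 6 ratios; others named were chosen after their values were seen. A few members that the rule names stay in the counts and medians but are not reported here one by one. The members and lists were chosen with earlier results of these data known. Each mouse is 1 replicate, and 3 GqCNO mice limit precision; UMIs give counting error only. The fits were tested on simulated data.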

Additional observations from a re-analysis of the deposited data

How the results depend on the processing

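The region differences depended on depth. Thinned to the lowest UMI total, the members called numbered 0 in place of 13 for SN against thalamus, 6 in place of 15 for VTA against thalamus and 9 in place of 23 for CP against LSX. Fewer genes were tested with a mean of at least 1, which left 5 for SN and 7 for VTA against thalamus, and with no filter 8 were called for SN against thalamus. GqCNO against controls kept 0 members in every region with the array pair as a block and by edgeR. In SN 1 member was called with an added constant of 0.1, and 0 to 1 with each mouse left out (1, Gabbr1, without GqCNO 781). The methods' t-test at an unadjusted p under 0.05 called 1 in SN, 3 in VTA, 1 in thalamus and 1 in white matter, and 0 after Benjamini-Hochberg adjustment. Between array pairs in thalamus 0 to 3 members were called with each mouse left out, the 3 without CNO alone C2W2 or C1W7. Among ratios between regions 13 tests passed with a higher constant in place of 0. Across all alternatives, counts stayed within 1.5 times the reported count in 251 cases and moved further in the 15 cases given above, and single values kept their side of the threshold in 1074 cases, lost the call in 139 and gained it in 4. The labels give no replicate number that mice of different groups share, so the array pair was the block used. The array pair comparison was chosen after seeing the data. Levels under about 1 UMI per column carry no order.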
